A study of Mus musculus with 6 samples.

Results

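The mitochondrial ribosomal protein genes were examined in cultured mouse granulosa cells (GCs) under androgen. They were taken from the deposited gene table by their symbols, which start with *Mrpl* or *Mrps* and a number and are not pseudogenes. The rule found 78 of the 16300 genes, 49 with large subunit names and 29 with small subunit names. GCs enclose and feed the oocyte in the ovarian follicle and make estradiol, and dihydrotestosterone (DHT) is a potent androgen that aromatase does not turn into an estrogen. RNA-seq was done on 3 control libraries, from GCs kept in medium, and on 3 libraries of GCs given 25 nM DHT for 24 h. All 6 came from wild type C57BL/6J females of 8 to 9 weeks in estrus, with the GCs of several mice pooled for each library, grown in serum and then starved of serum before treatment. The labels call the extracted material ovary, and their treatment text names DHT for all samples, so the groups follow the separate treatment characteristic.

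The mitochondrial ribosome makes only the few proteins that the mitochondrial genome encodes, which are core subunits of the respiratory chain and of ATP synthase. Its RNAs come from mitochondrial DNA, while all of its proteins are encoded in the nucleus, made in the cytosol and imported. The large subunit (*Mrpl* genes) forms peptide bonds and the small subunit (*Mrps* genes) reads the messenger. In steroid-making cells the first enzyme of steroid synthesis, *Cyp11a1*, also works inside mitochondria.

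The 78 genes lay on 17 chromosomes, and 26 of them started head to head with another protein-coding gene, with starts at most 1000 bases apart or 5' ends overlapping by at most 500 bases. The overlap limit was widened to 500 after the pair *Mrps11* and *Mrpl46* had been seen. RefSeq promoter windows (GRCm38.p6, 250 bases before to 50 after a start) were given for 69 of the 78 genes, in 75 windows. They were searched on both strands for GCGCATGCG, bound by nuclear respiratory factor 1 (NRF1), CCGGAAG, bound by ETS factors such as GABP, and AAGATGGCG, bound by YY1. The motifs were not allowed mismatches, and a window could hold more than 1 of them. The NRF1 letters were in 9.33% of the members' windows and in 1.75% of all 32851 windows. The ETS letters were in 34.7% against 8.86%, and the YY1 letters in 10.7% against 1.40%. Among the 21263 windows of protein-coding genes the shares were 2.35%, 11.6% and 1.83%. At least 1 of the 3 was in 36 of the 75 windows (48.0%), against 14.8% of protein-coding windows. A match describes the letters in the window and is not a measured binding site.

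Of the promoters, 4 are printed from 250 bases before to 30 after the start, each on its gene's own strand, with the searched letters in capitals. *Mrps6* is shown because it was the member called below, *Mrps11* because its window also holds the start of *Mrpl46* on the other strand, *Mrps27* because it holds the ETS and YY1 letters, and *Mrps18b* because it holds the NRF1 letters (its ETS letters reach past the printed end).

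Mrps6, chr16:92058086-92058365, plus strand: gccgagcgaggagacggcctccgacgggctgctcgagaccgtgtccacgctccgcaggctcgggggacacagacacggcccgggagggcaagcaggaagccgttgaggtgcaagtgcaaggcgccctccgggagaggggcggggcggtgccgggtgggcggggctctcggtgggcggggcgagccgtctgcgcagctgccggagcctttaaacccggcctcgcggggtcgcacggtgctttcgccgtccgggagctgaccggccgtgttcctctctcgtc
Mrps11, chr7:78782881-78783160, plus strand: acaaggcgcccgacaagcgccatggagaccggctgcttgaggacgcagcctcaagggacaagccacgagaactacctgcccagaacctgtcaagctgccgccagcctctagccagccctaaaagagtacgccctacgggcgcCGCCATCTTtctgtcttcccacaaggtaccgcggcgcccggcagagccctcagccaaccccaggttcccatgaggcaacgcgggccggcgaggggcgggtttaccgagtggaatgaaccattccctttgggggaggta
Mrps27, chr13:99344536-99344815, plus strand: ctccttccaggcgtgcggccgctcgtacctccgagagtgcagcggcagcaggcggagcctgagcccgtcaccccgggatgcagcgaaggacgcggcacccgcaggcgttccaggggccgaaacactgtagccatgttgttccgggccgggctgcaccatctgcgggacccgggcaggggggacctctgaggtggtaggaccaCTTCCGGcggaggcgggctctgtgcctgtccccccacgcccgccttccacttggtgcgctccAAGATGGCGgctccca
Mrps18b, chr17:35916411-35916690, minus strand: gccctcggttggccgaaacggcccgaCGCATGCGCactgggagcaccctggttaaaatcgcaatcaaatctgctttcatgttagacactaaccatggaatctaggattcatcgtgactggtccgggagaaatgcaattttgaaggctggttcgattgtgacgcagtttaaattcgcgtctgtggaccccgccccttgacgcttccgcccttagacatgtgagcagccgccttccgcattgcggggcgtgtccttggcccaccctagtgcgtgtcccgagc

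The *Mrps6* window holds none of the 3 motifs. The window of *Slc5a3*, a sodium-coupled myo-inositol transporter, covers nearly the same bases, chr16:92058072-92058351 on the same strand.

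The deposited values are counts scaled by a library size factor, called normalized counts here. The recovered reads summed to between 36111177 and 41928585 per library. Of 11 granulosa cell markers, 10 were tested, all but *Cyp19a1*, which encodes aromatase. *Amh* and *Fshr* lay between 63.3 and 196 normalized counts and the other 8 at 2194 or more in every library. Of the 10, 5 were called, beside 11.2% of all genes. *Cyp11a1* (log2 fold change 0.49, limma adjusted p = 0.010) and *Hsd17b1* (0.48, 0.0044) were higher in DHT. *Kitl* (-0.85, limma adjusted p = 0.0012), *Inha* (-0.61, 0.0016) and *Foxl2* (-0.15, 0.049) were lower. Of 8 oocyte markers, *Zp3*, *Oosp1* and *Dppa3* were at 0 in DHT replicate 2, and the summed level ran from 375 to 861 in the controls and from 108 to 639 in the DHT libraries. Of the other markers in the table, the 3 endothelial ones summed to 101 to 169 and the 4 immune ones to 193 to 265, and the 6 theca and stromal ones to 7793 to 10869 in controls and 12283 to 13750 in DHT. Of those 6 only *Acta2*, the most abundant, was called (log2 fold change 0.76, limma adjusted p = 0.0056), *Col3a1* was at 0.24, and *Dcn*, *Pdgfra*, *Lum* and *Col1a1* had fold changes below 0, from -1.05 to -0.13. Of the 4 immune ones *Csf1r*, a macrophage receptor, was lower in DHT (log2 fold change -0.64, limma adjusted p = 0.027), and *Ptprc*, at 5.94 to 15.7 normalized counts, was at 0.72 (limma adjusted p = 0.22). Their part in the results was not tested. In bulk RNA, fewer cells of a type and less RNA per cell cannot be told apart.

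All of the genes were detected in every library. Their mean over the 6 libraries had a median of 1206 normalized counts, and 77 of the 78 lay between 590 and 2301. Per kilobase of exons the level ranged from 59.4 to 2601 normalized counts, with a median of 545. The highest large subunit genes were *Mrpl34* at 2601 per kilobase, *Mrpl12* at 1301 and *Mrpl54* at 1287, and the highest small subunit genes were *Mrps21* at 2093, *Mrps23* at 1149 and *Mrps6* at 1141. *Mrpl12* and *Mrpl54* belong to the L7/L12 stalk, where translation factors bind. So do *Mrpl10* at 1046 per kilobase, *Mrpl11* at 404 and *Mrpl53*, the lowest of the 78. The lowest large subunit genes were *Mrpl53* at 59.4, *Mrpl48* at 122 and *Mrpl23* at 156 per kilobase. The lowest small subunit names were *Mrps35* at 106, *Mrps25* at 135 and *Mrps30* at 177. In *Mrpl48*, *Mrps35*, *Mrps25* and *Mrps30* the annotated exons are long, from 6576 to 8631 bases in all, and the level per kilobase rests on that length. *Mrps25* also shares 69.8% of its exonic bases with *Nr2c2* on the other strand. The high levels rest on length too, with exons of 607 bases in *Mrpl34*, 739 in *Mrps21* and 825 in *Mrpl54*. *Mrpl53* shares 88.0% of its exonic bases with the same-strand gene *Gm42688*, and reads that fall on both may not be counted for it. Its normalized counts were 41.6, 40.9 and 47.2 in control and 44.0, 60.0 and 47.9 in DHT.

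**Figure D1:**
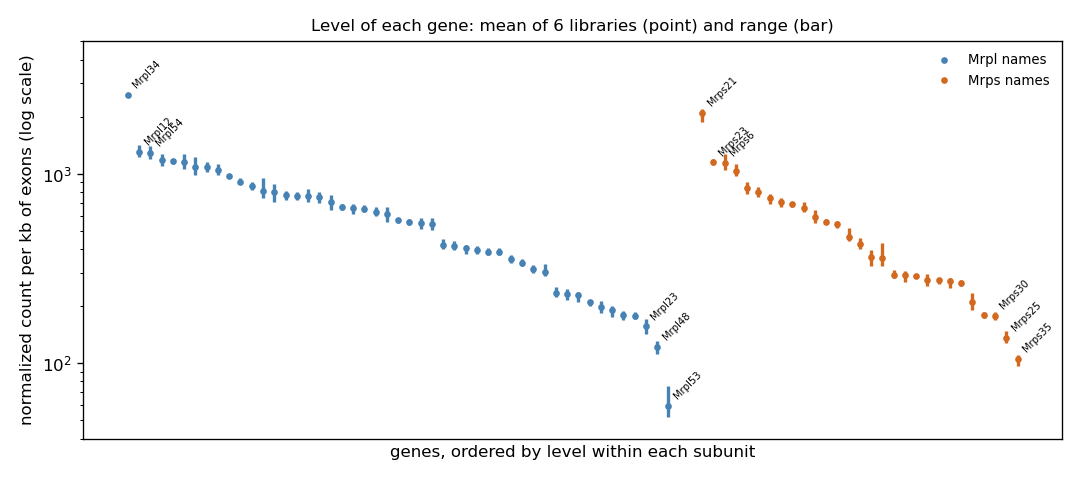
Level of each of the 78 genes in normalized counts per kilobase of exons on a log scale, ordered within large and small subunit names, with points for the mean of the 6 libraries and bars for their range. *Mrpl34* and *Mrps21* lead, and *Mrpl53* is lowest at 59.4.

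Few mitochondrial ribosomal protein genes changed with DHT, and by little. With limma on log2(normalized count + 1), 1 of the 78, *Mrps6*, passed a Benjamini-Hochberg adjusted p of 0.05, higher in DHT, and none was lower. Of all 16292 genes tested, 1823 (11.2%) passed, 1063 higher (6.52%) and 760 lower (4.66%). None of the 78 also passed an absolute log2 fold change of 1, as 1.31% of all genes did. By edgeR on the recovered reads 1 of the 78 was called, against 1812 of all genes (11.1%). By DESeq2 2 were, against 1927 of the 14717 genes it gave an adjusted p (13.1%). The members called were all higher in DHT. At an unadjusted limma p of 0.05, 5 were higher and 2 lower, 8.97% of the 78 against 25.2% of all genes. The groups did not overlap for 14 of the 78, 10 higher and 4 lower in DHT, which was 17.9% against 30.6% of all genes.

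The intervals describe each gene on its own and do not hold jointly for all 78. Their log2 fold changes ran from -0.19 (*Mrpl52*) to 0.24 (*Mrps11*), with a median of 0.0060 beside -0.0052 over all genes. The quartiles were -0.052 and 0.063, and those of all genes -0.12 and 0.11. The 95% interval of every member lay between -0.36 and 0.64, and it stayed within 0.5 of 0 for 77 of the 78, all but *Mrpl53*, against 63% of all genes. The limit of 0.5 was chosen after the values were seen. The median standard error was 0.052, and 0.078 over all genes. Across the 78 genes the fold change had a Pearson r of -0.0081 with the log2 exonic length and 0.099 with the guanine and cytosine (G+C) content, as a description of genes that share the same 6 libraries.

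**Figure D2:**
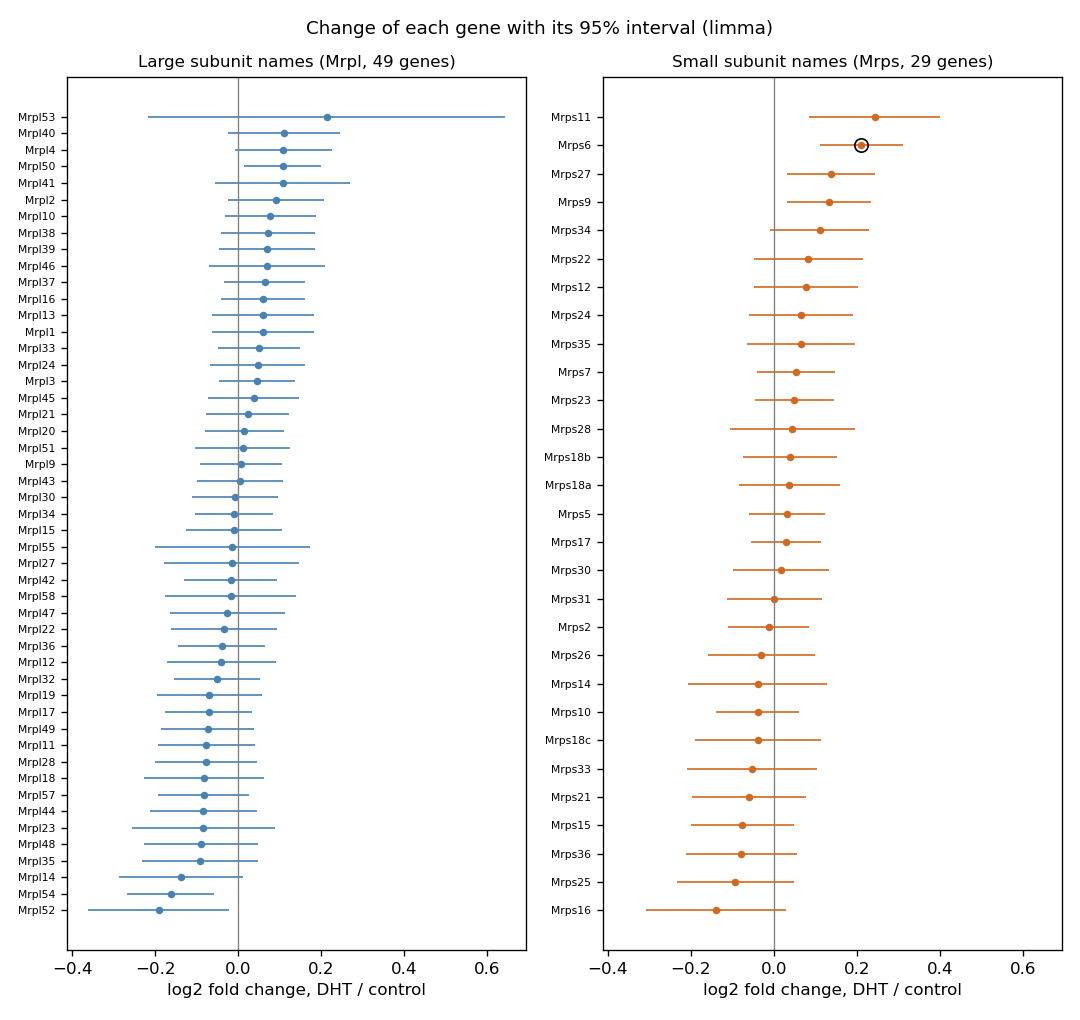
Log2 fold change (DHT over control) of each gene with its 95% limma interval, large subunit names on the left and small subunit names on the right. The circle marks *Mrps6*, called at the adjusted threshold, and all fold changes lie between -0.19 and 0.24.

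*Mrps6* encodes a protein of the small subunit with a counterpart in bacteria (chr16:92058270-92112227, plus strand, GRCm38). Its normalized counts were 1602, 1606 and 1654 in control and 1797, 1893 and 1943 in DHT. All DHT libraries were above all controls, with a log2 fold change of 0.21 (SE 0.045, 95% interval 0.11 to 0.31, limma adjusted p = 0.017, n = 3 and 3). Its 95% interval corresponds to a fold of 1.08 to 1.24. The call was lost without DHT replicate 2 (limma adjusted p = 0.079), DHT replicate 3 (0.077) or control replicate 2 (0.054), without the intensity trend (0.072) and with the replicate block (0.061).

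*Mrps6* shares 305 exonic bases, 19.9% of its exons, with *Gm49711* and 159 (10.4%) with *Slc5a3*, both on the same strand. *Gm49711* has no row in the table used here. *Slc5a3* also rose, from 1589, 1305 and 1511 normalized counts in control to 1884, 1840 and 1858 in DHT. Its log2 fold change was 0.35 (95% interval 0.19 to 0.50, limma adjusted p = 0.013). Both genes start within the promoter window printed above, and a read on a shared exon may count for neither. The part of the overlap in the *Mrps6* result was not tested.

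Of the 10 genes with the smallest p, 7 had fold changes above 0, among them all those with small subunit names, and only *Mrps6* was called. At an unadjusted limma p of 0.05, 13.8% of the small subunit names were higher, beside 13.4% of all genes. *Mrps11*, whose product sits in the platform of the small subunit, had 710, 707 and 727 normalized counts in control and 784, 830 and 932 in DHT. The DHT libraries were all above the controls, with DHT replicate 3 highest, for a log2 fold change of 0.24 (SE 0.070, limma adjusted p = 0.057). DESeq2 called it at an adjusted p of 0.050. Its head-to-head neighbour *Mrpl46*, which overlaps it at the 5' end, had 588, 578 and 561 against 573, 613 and 627. Those groups overlapped, with a log2 fold change of 0.069 (limma adjusted p = 0.54).

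*Mrps9*, another small subunit protein with a bacterial counterpart, had 1572, 1663 and 1552 normalized counts in control and 1708, 1775 and 1765 in DHT, a log2 fold change of 0.13 (limma adjusted p = 0.097). *Mrps27*, a pentatricopeptide repeat protein of the small subunit without a bacterial counterpart, had 1147, 1193 and 1174 against 1258, 1269 and 1339, a log2 fold change of 0.14 (limma adjusted p = 0.10). Neither overlapped between groups. *Mrps27* shares 24.2% of its exonic bases with *6430562O15Rik* on the other strand. *Mrps34* had 880, 822 and 835 against 897, 902 and 940, with a log2 fold change of 0.11 (limma adjusted p = 0.23), and 63.4% of its exonic bases are shared with *Mapk8ip3* on the other strand and 37.0% with *Nme3*. *Mrpl50* had 1529, 1606 and 1580 in control and 1688, 1685 and 1706 in DHT, a log2 fold change of 0.11 (limma adjusted p = 0.14). *Mrpl4*, whose product lines the peptide exit tunnel, overlapped between groups, with 1324, 1411 and 1351 against 1387, 1500 and 1520 (log2 fold change 0.11, limma adjusted p = 0.23).

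The 3 genes below 0 among the 10 with the smallest p had large subunit names. The next below 0 by p was *Mrps16*, named here after its values were seen, at a log2 fold change of -0.14 (limma adjusted p = 0.29). *Mrpl54* had 1148, 1116 and 1102 normalized counts in control and 1018, 1004 and 985 in DHT. The groups did not overlap, with a log2 fold change of -0.16 (SE 0.046, 95% interval -0.27 to -0.058, limma adjusted p = 0.055). *Mrpl52*, of the central protuberance, had 1050, 961 and 851 against 822, 831 and 843, with the controls more spread than the DHT libraries (log2 fold change -0.19, limma adjusted p = 0.15, and -0.12 without control replicate 1). *Mrpl14* had 1168, 1063 and 998 against 935, 980 and 1016 and overlapped (log2 fold change -0.14, limma adjusted p = 0.24, and -0.077 without control replicate 1). It shares 11.2% of its exonic bases with *Tmem63b* on the other strand.

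**Figure D3:**
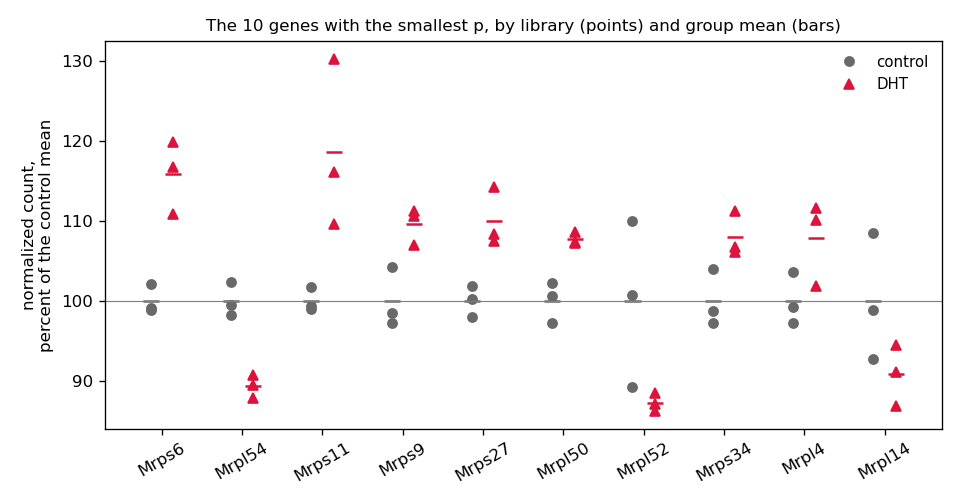
Normalized count of the 10 genes with the smallest limma p, as a percent of the control mean, with points for the libraries (circles control, triangles DHT) and short bars for group means. *Mrps6* and *Mrps11* stand above all control libraries in all DHT libraries, and *Mrpl54* below them.

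Some members have names or roles apart from the rest. *Mrps18a* and *Mrps30* encode proteins that sit in the large subunit despite their names, and had log2 fold changes of 0.038 (limma adjusted p = 0.72) and 0.018 (0.87). *Mrps18b* and *Mrps18c*, paralogs in the small subunit, had 0.039 (limma adjusted p = 0.69) and -0.038 (0.77). *Mrps36*, whose protein belongs to the oxoglutarate dehydrogenase complex, had -0.078 (limma adjusted p = 0.47). *Mrpl12*, which also binds mitochondrial RNA polymerase, had -0.040 (limma adjusted p = 0.72), and *Mrpl58*, a peptidyl-tRNA hydrolase that rescues stalled ribosomes, had -0.018 (0.91). The groups overlapped for each of these 7 genes, and leaving out 1 library moved each of these small values by over 1.5 times.

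By structure, the median log2 fold change was -0.040 over the 5 stalk genes, -0.034 over the 9 genes at the mouth of the exit tunnel and -0.015 over the 8 of the central protuberance, with none called in any of them. It was -0.0078 over the 48 genes with a bacterial counterpart, with *Mrps6* called, and 0.014 over the other 30, with none called.

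Small subunit names took a slightly larger share of the members' reads in DHT. The share was 34.4%, 34.7% and 34.9% in control replicates 1 to 3 and 35.2%, 35.3% and 35.1% in DHT replicates 1 to 3. The means were 34.7% ± 0.22 and 35.2% ± 0.10 (SD, n = 3 each). The groups did not overlap, but the 95% Wilson intervals, which cover counting error only, overlapped in 6 of the 9 pairs of a control and a DHT library. Those of control replicates 2 (34.4% to 35.0%) and 3 (34.6% to 35.2%) overlapped all 3 DHT intervals, and that of control replicate 1 none. Without *Mrps6* the highest control was 33.7% and the lowest DHT library 33.8%, and with *Mrps18a* and *Mrps30* counted with the large subunit they were 32.57% and 32.72%. Without the 18 members that share at least 10% of their exonic bases with other genes (summed over neighbours), the groups overlapped, with a highest control of 32.73% and a lowest DHT library of 32.67%. No test was made of this share. The median log2 fold change was 0.032 over the 29 small subunit names, of which 18 were above 0, and -0.0088 over the 49 large subunit names, of which 23 were.

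**Figure D4:**
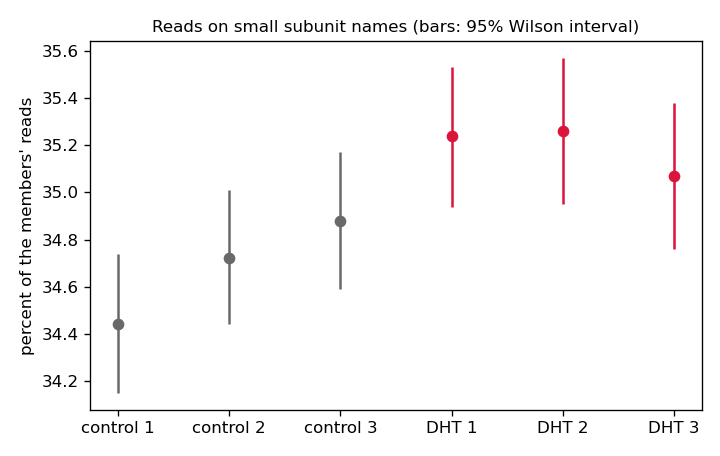
Percent of the members' reads that fell on small subunit names in each library, with 95% Wilson intervals as bars; the axis does not start at 0. The 3 DHT libraries lie between 35.1% and 35.3% and the 3 controls between 34.4% and 34.9%.

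All 78 genes together took 0.261%, 0.259% and 0.248% of the reads in control and 0.251%, 0.249% and 0.258% in DHT, a mean of 0.256% ± 0.0071 against 0.253% ± 0.0044 (SD, n = 3 each). The groups overlapped.

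The other genes of mitochondrial translation were taken from 6 lists made by known roles, and none of their 96 genes passed the adjusted limma threshold. At an unadjusted limma p of 0.05, 12 of them were higher and 4 lower, 16.7% of the 96 against 25.2% of all genes, and 12.5% against 13.4% for those higher. Of 26 ribosome assembly genes none was called by limma, edgeR or DESeq2, with a median log2 fold change of 0.039. Of 15 translation factors none was called by any of the 3, with a median of -0.034, and of 20 genes for charging mitochondrial tRNAs none, with a median of 0.026. Ribosomal proteins with other symbols numbered 5 and included *Dap3*, a small subunit GTP-binding protein, at 0.0072 (95% interval -0.080 to 0.095).

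Nuclear regulators of mitochondrial genes did not pass the test either. Of 17 genes for mitochondrial transcription and its nuclear regulators none was called by any of the 3 tools, with a median log2 fold change of -0.041. *Nrf1* had 1305, 1419 and 1384 normalized counts in control and 1321, 1264 and 1295 in DHT, a log2 fold change of -0.082 (limma adjusted p = 0.34). *Gabpa*, the DNA-binding subunit of GABP, had 4246, 4264 and 4442 against 4134, 4017 and 4014, without overlap, at -0.090 (limma adjusted p = 0.16). *Gabpb1*, a partner subunit of GABP, lay the other way, with 1244, 1277 and 1300 against 1365, 1387 and 1406, also without overlap, at 0.12 (limma adjusted p = 0.11). *Yy1* had -0.018 (limma adjusted p = 0.79). *Tfam* and *Polrmt*, a factor and the polymerase that transcribe mitochondrial DNA, had -0.026 and -0.018 (limma adjusted p = 0.80 and 0.84), and *Myc* had -0.077 (0.48). *Ppargc1a*, a coactivator of mitochondrial genes, was low at 16.3 to 24.7 normalized counts, with a 95% interval of -0.73 to 0.43.

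Of the 13 protein-coding transcripts of mitochondrial DNA, which this ribosome translates, limma called none, edgeR 1 and DESeq2 3, with a median log2 fold change of 0.071 and 5 higher at an unadjusted limma p of 0.05 (38.5% of the 13 against 13.4% of all genes). These figures mix 7 transcripts at 33668 to 453162 normalized counts with 6 at 17.4 to 260, and of the 5 higher, *mt-Nd1*, *mt-Nd2* and *mt-Cytb* are of the first kind and *mt-Atp6* and *mt-Co2*, at 32.7 to 75.1, of the second. The nearest was *mt-Nd2*, a complex I subunit named here after its values were seen, at 80730, 77102 and 83585 normalized counts in control and 90980, 91968 and 88756 in DHT. The groups did not overlap (log2 fold change 0.17, limma adjusted p = 0.059). All mitochondrial DNA transcripts took 2.62% ± 0.082 of the reads in control and 2.66% ± 0.061 in DHT (SD, n = 3 each).

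Beside these, the 88 genes with cytosolic ribosomal protein names had a median log2 fold change of -0.010 with none called by limma or edgeR and 1 by DESeq2 (3 lower at an unadjusted limma p of 0.05, 3.41% against 11.8% of all genes). The 77 nuclear subunits of oxidative phosphorylation had a median of -0.012 with 1 called, *Atp5g3*, at 0.20 (limma adjusted p = 0.024). Of all genes, 11.2% were called. At an unadjusted limma p of 0.05, 14.3% of the 77 passed, against 25.2% of all genes.

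**Figure D5:**
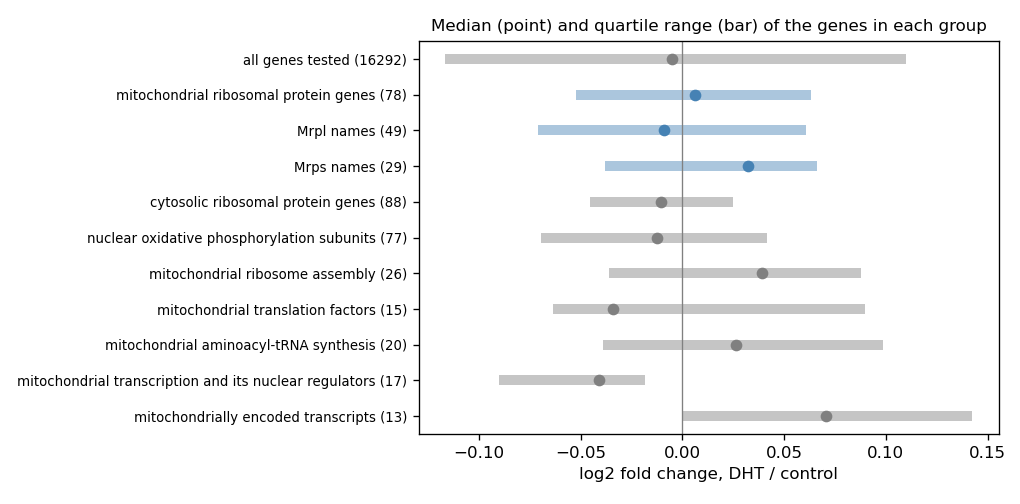
Median (point) and quartile range (bar) of the log2 fold changes, DHT over control, in all genes tested, the mitochondrial ribosomal protein genes and the lists compared with them, with the number of genes in parentheses. The medians lie between -0.041 and 0.071, inside the quartile range of all genes.

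None of the 26 head-to-head neighbours passed the adjusted limma threshold, which 11.2% of all genes passed. They include *Apba3* beside *Mrpl54*, with starts 26 bases apart, at a log2 fold change of 0.073 (limma adjusted p = 0.36). *Ptcd2*, which acts in mitochondrial RNA processing, starts 81 bases from *Mrps27* and had -0.094 (limma adjusted p = 0.35). *Psma2*, a proteasome subunit, starts 75 bases from *Mrpl32* and had -0.12 (limma adjusted p = 0.14). *Mrps11* and *Mrpl46* are neighbours of each other, which leaves 25 distinct pairs, and both fold changes had the same sign in 14 of them. The share of same signs in other pairs of genes was not computed.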

How the data were processed

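RNA-seq was done on 6 libraries of mouse GCs, 3 per group. Per the labels and methods, reads were trimmed with Trimmomatic 0.36, mapped to GRCm38 with STAR 2.5.2b and counted on exons with featureCounts of Subread 1.5.2; the strand setting is not given in the sources used here. The signal that the authors deposited is the count per gene divided by the DESeq2 size factor of its library. Divided by the step of its library, 100% of each library's 16300 values came out as whole reads (tolerance 0.001), 36111177 to 41928585 in all. The authors also deposited fold changes and p-values, which were not used, and a second table of their called genes. With 3 libraries against 3, the labels do not say which came from the same pool of mice, and p-values measure the spread between these libraries.

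limma 3.58.1 (R 4.3.3) was fitted to log2(value + 1) (intensity trend, mean of at least 10, 16292 genes), with Benjamini-Hochberg adjustment over all genes and no block. The pseudocount understates changes of low genes. Alternatives were pseudocounts of 0.5 and 8, other filters and scalings, G+C and length correction, the replicate block, edgeR 4.0.16, DESeq2 1.42.0 and each library left out. Members and lists were chosen with earlier results of these data known. Genes named are members called, or otherwise the 10 with the smallest p, the 3 highest and lowest per kilobase in each subunit, 7 with particular roles, *Dap3* and 6 regulators; *Mrpl46*, *Mrps16*, *Slc5a3*, head-to-head neighbours, *Gabpb1*, *Yy1*, the marker genes and mitochondrial DNA transcripts were added after values were seen. Positions and exonic overlaps came from GENCODE M21 on GRCm38. Old symbols were matched to new ones. Alternatives that drop genes sharing exons, drop *Mrps6* or move *Mrps18a* and *Mrps30* were also added after the data were seen.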

Additional observations from a re-analysis of the deposited data

How the results depend on the processing

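*Mrps6* was higher under all 19 alternatives, with a log2 fold change of 0.18 to 0.24 and adjusted p of 0.012 to 0.079, and was called in 14. It was not called without the intensity trend (limma adjusted p = 0.072). The number of members called higher was 0 without the intensity trend, 2 with the G+C and length correction and 2 by DESeq2, and 0 to 2 over the leave-one-out fits, being 0 without control replicate 2, DHT replicate 2 or DHT replicate 3 and 2 without DHT replicate 1. Dropping the members that share exons also gives 0, by construction, since it drops *Mrps6*. The number called lower was 1 with a mean of at least 50, total reads, quantile normalization and the G+C and length correction, which was *Mrpl54* each time, and 0 to 1 with each library left out, the call being *Mrpl52* without control replicate 3. Members past both thresholds numbered 0 under every alternative. The median log2 fold change of the members was -0.024 scaled to total reads, where that of all genes was -0.035, and -0.0088 to 0.025 with each library left out. *Mrps30* became -0.012 with total reads. With a library left out, *Mrps30* ranged from -0.014 to 0.041, *Mrpl58* from -0.063 to 0.048, *Mrpl12* from -0.077 to 0.015, *Mrps18a* from 0.0047 to 0.070, *Mrps18b* from 0.010 to 0.066, *Mrps18c* from -0.091 to -0.0086, *Mrps36* from -0.13 to -0.042, *Mrpl52* from -0.27 to -0.12 and *Mrpl14* from -0.19 to -0.077. Of the list genes, 1 was called with the G+C and length correction, 1 by edgeR, 3 by DESeq2 and 0 to 1 with each library left out, all of them mitochondrial DNA transcripts. All genes called numbered 1823, 804 without the intensity trend and 931 to 2094 with each library left out. Those past both thresholds numbered 213, 131 with a mean of at least 50 and 138 to 286 with each library left out. The rise in the small subunit share was 0.51 percentage points and 0.19 without members sharing exons. The cause of these shifts was not tested.

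Whether same-numbered libraries were paired could not be settled. Their deviations from the group means correlated at 0.0058, 0.067 and -0.24. With 3 libraries in a group, such correlations cannot decide it. A fit with the replicate block called 990 genes and no member (*Mrps6* adjusted p = 0.061 by limma), and one with the block and the G+C and length correction called 1022 genes and 1 member, *Mrps6* (limma adjusted p = 0.047). Not every library correlated best with its own number. At the depth of these libraries *Mrpl53* is the member with the least precise value.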
